A study of Mus musculus with 18 samples.

Results

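The response of TTP-KO basophils to 4 h of antigen was measured in 3 libraries treated with TNP-OVA for 4 h and 3 treated with control OVA for 2 h, which are 6 of the study's 18 libraries. All genes that passed a filter on low counts were described, 14076 of the 56413 in the count table. TTP-KO is the label for mice that lack tristetraprolin; the kind of allele, and the strain, sex and age of the mice, are not given in the sources used here. Bone marrow of TTP-KO or wild-type (WT) mice was grown in interleukin-3 (0.3 ng/mL) over 7 days. IgE against the hapten TNP was added on day 6 at 1 µg/mL, and cells carrying CD49b were enriched on magnetic beads on day 7. The cells then received plain ovalbumin (control OVA) for 2 h, or TNP-coupled ovalbumin (TNP-OVA), which links the bound IgE, for 2 h or 4 h, all at 10 ng/mL. Each of the 6 groups had 3 libraries of polyadenylated RNA, and nothing in the labels says whether these came from separate mice, so p-values measure only the spread between libraries, which may be technical. No control was taken at 4 h: antigen and the longer time after the start of treatment cannot be told apart.

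Basophils carry the high-affinity IgE receptor, an assembly of an IgE-binding chain, a signal-amplifying chain and the shared Fc receptor gamma chain. Linking of this receptor starts tyrosine kinase signalling, calcium entry and MAP kinase activity, and the cells release histamine, lipid mediators, cytokines and chemokines. Tristetraprolin is an RNA-binding protein that binds AU-rich elements in the 3′ untranslated region (UTR) of messenger RNAs and recruits the machinery that removes their poly(A) tails. Many messages that antigen induces, such as those of cytokines, chemokines and early response genes, carry such elements.

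The 6 libraries held from 6051800 to 11395000 estimated counts. The ribosomal RNA gene Rn18s-rs5 took from 7.96% to 8.27% of the counts in the controls and from 9.94% to 11% at 4 h. Zfp36, the gene of tristetraprolin, gave 219, 228 and 225 CPM (counts scaled to a common library size) in the controls and 349, 322 and 301 CPM at 4 h in cells labelled TTP-KO, against 224, 239 and 247 CPM and 268, 307 and 309 CPM in WT. The level of this RNA overlapped between the genotypes and so did not check the labels. TTP-KO is used below as the label gives it. Markers are counted by calls at an adjusted p under 0.05 in edgeR's test. Of all genes tested 18.3% were called higher and 16.7% lower at 4 h. Of 16 basophil markers 7 were higher and 8 lower at 4 h, with a summed level of 31100 to 32700 CPM in the controls and 31700 to 32400 CPM at 4 h. Of 11 mast cell markers, Mrgprb1 and Mrgprb2 were at 0 in all 6 libraries. Others were present, such as Tpsb2 and Cma1, with means of 77.1 and 26.95 CPM in the controls. The mast cell markers summed to 442 to 485 CPM in the controls and 459 to 475 CPM at 4 h. Monocyte and macrophage markers were present, with Lyz2 at 7138, 7110 and 6883 CPM and C1qb at 657, 666 and 685 CPM in the controls. Their summed level was 12700 to 12900 CPM in the controls and 11800 to 12700 CPM at 4 h. Neutrophil and granulocyte precursor markers summed to 3110 to 3510 CPM in the controls and 2990 to 3370 CPM at 4 h, where 11 of 17 were lower and 1 was higher. Of 10 megakaryocyte and platelet markers 8 were lower at 4 h, but only 1, 2, 2, 3 or 5 of them in the fits without control replicate 2, control replicate 1, 4 h replicate 2, 4 h replicate 3 or 4 h replicate 1. The summed levels of these markers were 1600 to 2130 CPM in the controls and 1580 to 1760 CPM at 4 h. In bulk RNA, fewer cells of a type and less RNA per cell cannot be told apart.

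At 4 h of antigen 4932 genes differed from the control at an adjusted p under 0.05, which is 35.0% of the genes tested (edgeR's quasi-likelihood test with Benjamini-Hochberg adjustment). Of these 2577 were higher (18.3% of the genes tested) and 2355 lower (16.7%). At least 2-fold changes were rarer, with 450 genes higher (3.20%) and 389 lower (2.76%). At least 4-fold changes numbered 91 higher and 37 lower, and at least 8-fold changes 14 and 5. The genes at least 2-fold higher took 2.73%, 2.83% and 2.76% of all counts in the controls and 7.23%, 7.17% and 6.9% at 4 h. The genes at least 2-fold lower took 1.37%, 1.37% and 1.49% in the controls and 0.511%, 0.514% and 0.524% at 4 h. Genes with no overlap between the 3 controls and the 3 libraries at 4 h numbered 6684, or 47.5%. The share of genes called rose with abundance, from 11.3% in the lowest of 4 equal classes by mean CPM to 58.9% in the highest, while the median standard error of the log2 fold change fell from 0.472 to 0.0679. At least 2-fold calls ran the other way, with 347 in the lowest class and 139 in the highest. Of the 839 genes changed at least 2-fold (5.96%), 649 were called in each of the 6 fits that left out a library.

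**Figure D1:**
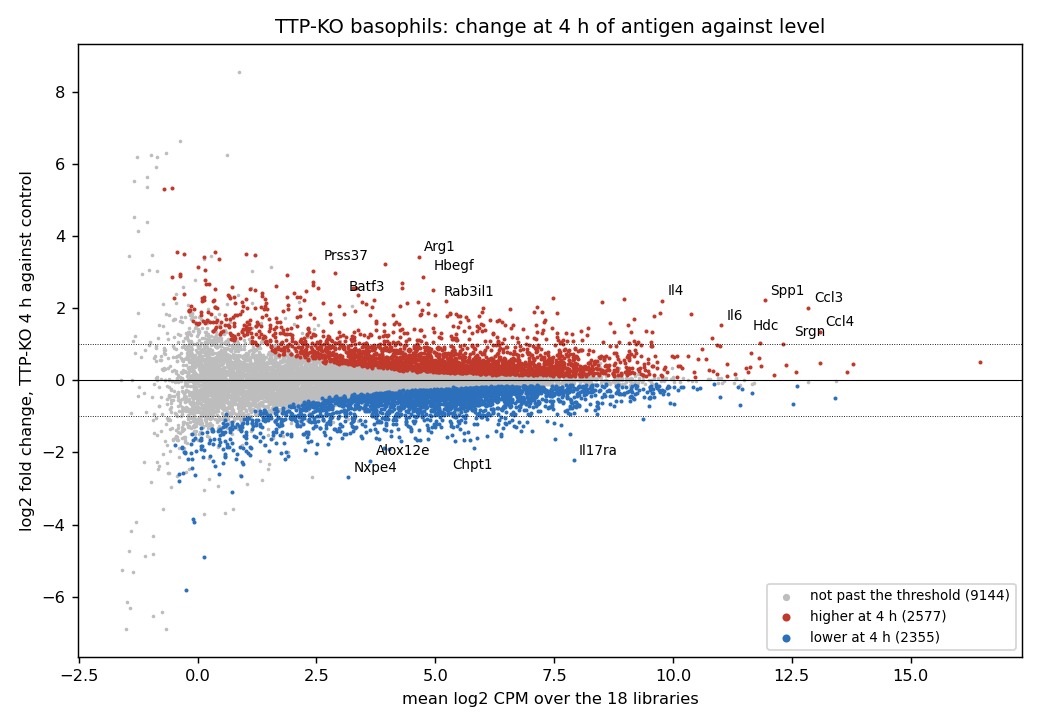
Log2 fold change of each of the 14076 genes between TTP-KO basophils after 4 h of TNP-OVA and the TTP-KO control (vertical axis) against the mean log2 CPM over the 18 libraries (horizontal axis). Red points are the 2577 genes higher and blue points the 2355 genes lower at an adjusted p under 0.05; dotted lines mark a 2-fold change, and named genes run from Arg1 at 3.43 to Nxpe4 at -2.69.

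The 15 largest increases were led by an enzyme, a trypsin family member and a phosphatase receptor. They were chosen among genes with a mean of at least 2 log2 CPM and groups that did not overlap. The call also had to hold without any one of the 6 libraries. Arg1, arginase 1, which splits arginine into ornithine and urea, gave 10.5, 10.8 and 10.5 CPM in the controls and 122, 118 and 102 CPM at 4 h. The lowest library at 4 h lay far above the highest control, and the increase was 10.8-fold, a log2 fold change of 3.43 ± 0.10 (SE, adjusted p = 1.23e-20). Prss37, a trypsin family member, rose from 4.96, 6.39 and 4.21 CPM to 48.6, 51.6 and 46.7 CPM, a log2 change of 3.24 ± 0.13 (adjusted p = 1.32e-17). Ptprf, a receptor-type tyrosine phosphatase, went from 1.9, 2.24 and 1 CPM to 12.8, 14.8 and 14.4 CPM (log2 3.04 ± 0.23). Scimp, an adaptor of immune cell membranes, rose from 2.19, 2.69 and 3 CPM to 20.1, 24 and 19.7 CPM (log2 2.98 ± 0.18). These 4 genes were at or below 11 CPM in every control library, so their folds started from low levels.

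Secreted factors and transcription factors came next. Hbegf, a growth factor of the EGF family, rose from 9.05, 11.4 and 8.21 CPM to 76.7, 72 and 59.8 CPM (log2 2.86 ± 0.12). The chemokine Ccl1 rose from 1.17, 1.91 and 1.4 CPM to 11, 10.1 and 9.04 CPM (log2 2.72 ± 0.24), and Ccl24, eotaxin-2, from 4.53, 3.92 and 3.9 CPM to 26.2, 27.8 and 19.5 CPM (log2 2.58 ± 0.19). Batf3, an AP-1 family factor known for its part in dendritic cell development, rose from 7.45, 7.84 and 7.01 CPM to 51.3, 43.7 and 48.7 CPM (log2 2.69 ± 0.12). Irf4, an interferon regulatory factor of activated lymphoid and myeloid cells, rose from 6.28, 7.4 and 5.71 CPM to 33.6, 34.6 and 47.1 CPM (log2 2.57 ± 0.17), with the third library at 4 h above the other 2. Rab3il1, an exchange factor for Rab GTPases, rose from 16.1, 16.2 and 15.7 CPM to 90.8, 94.2 and 88 CPM (log2 2.51 ± 0.10). The receptors Tnfrsf9 (4-1BB), Il20rb and Notch3 rose by log2 2.55 ± 0.23, 2.65 ± 0.24 and 2.47 ± 0.26, and the membrane protein gene Tmem26 and the matrix gene Hapln1 by 2.56 ± 0.14 and 2.43 ± 0.26.

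The 15 largest decreases, chosen by the same criteria, were smaller in size. Nxpe4 fell from 18.1, 25.2 and 26 CPM in the controls to 3.45, 3.89 and 3.49 CPM at 4 h, a log2 fold change of -2.69 ± 0.17 (adjusted p = 2.98e-13). Alox12e, a lipoxygenase, fell from 25, 29.6 and 32.3 CPM to 6.9, 6.88 and 4.83 CPM (log2 -2.23 ± 0.15). Pik3ip1, an inhibitor of PI3 kinase, fell from 11.4, 11.7 and 10.01 CPM to 2.93, 2.73 and 2.98 CPM (log2 -1.93 ± 0.20). Chpt1, an enzyme of phosphatidylcholine synthesis, fell from 103, 109 and 105 CPM to 28.1, 30.8 and 28.8 CPM (log2 -1.86 ± 0.20). Rassf3, a Ras association domain protein, fell from 109.5, 112 and 117 CPM to 35, 36.6 and 35.3 CPM (log2 -1.66 ± 0.064). Mrgpra6, of the Mas-related receptor family, fell from 75, 78.3 and 75.6 CPM to 26.7, 20.5 and 23.9 CPM (log2 -1.68 ± 0.091).

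Cx3cr1, the fractalkine receptor, and Smad6, an inhibitor of BMP signalling, fell, with log2 changes of -1.76 ± 0.24 and -1.75 ± 0.26. The ribonuclease gene Rnase4, the ubiquitin ligase gene Rnf144b and Tbc1d4, which encodes a Rab GTPase-activating protein of glucose transport, fell, with log2 changes of -1.91 ± 0.14, -1.87 ± 0.13 and -1.65 ± 0.092. Rapsn, which anchors acetylcholine receptors, the RNA helicase gene Ddx25 and Rom1, a membrane protein gene of photoreceptors, fell as well, with log2 changes of -1.68 ± 0.13, -1.67 ± 0.25 and -1.66 ± 0.11. Il17ra, the interleukin-17 receptor, stood apart from these genes: its control values were 308, 329 and 1341 CPM, against 143, 164 and 123 CPM at 4 h. The third control library lay far above the other 2, and the log2 fold change of -2.21 ± 0.45 became -1.15 without it (adjusted p = 1.26e-05). With only the 6 TTP-KO libraries of this comparison in the fit the call was lost (adjusted p = 0.0968).

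**Figure D2:**
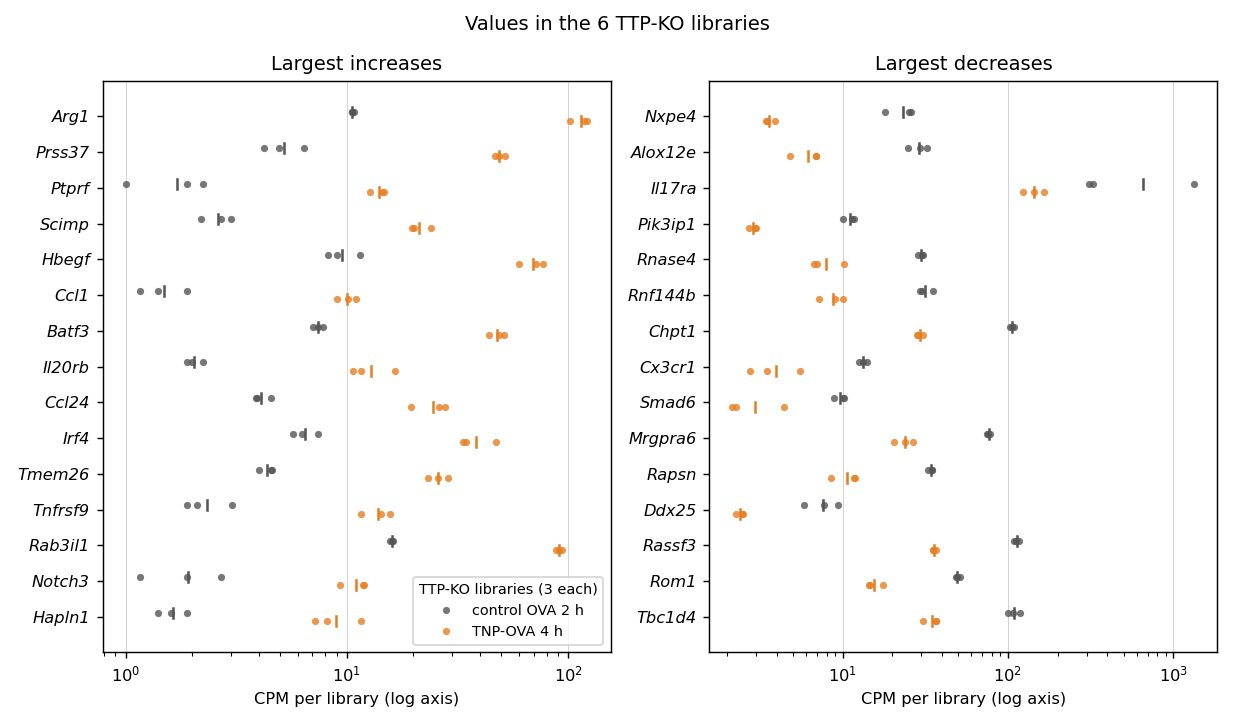
CPM of the 15 genes with the largest increases (left) and the 15 with the largest decreases (right) in each TTP-KO library, on log axes; points are libraries, 3 of control OVA at 2 h (grey) and 3 of TNP-OVA at 4 h (orange), and bars are group means. The genes were chosen for groups that do not overlap, and the third control library of Il17ra lies at 1341 CPM, away from the other 2.

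Among genes changed at least 2-fold, the 10 with the highest CPM at 4 h included chemokines, cytokines and the enzyme of histamine synthesis. All were increases, which a ranking by the level at 4 h favours. Fcer1a, which fell, had a mean of 933 CPM in the controls, above the 698 CPM of Il6, one of the 10. CPM does not account for transcript length, so the values below compare libraries and not genes. Ccl3, an inflammatory chemokine, gave 2095, 2370 and 2276 CPM in the controls and 9511, 9385 and 8318 CPM at 4 h (log2 2.01 ± 0.05). Its relative Ccl4 gave 2869, 3088 and 2934 CPM and 7674, 7822 and 7139 CPM (log2 1.35 ± 0.041). Il4, the type 2 cytokine for which basophils are known, rose from 255, 282 and 255 CPM to 1301, 1187 and 1186 CPM, a 4.64-fold increase (log2 2.21 ± 0.076, adjusted p = 2.27e-12). All 3 stood far above their controls in each library.

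Il6, an inflammatory cytokine, rose from 673, 738 and 684 CPM to 2146, 2061 and 1845 CPM (log2 1.53 ± 0.063). Spp1, osteopontin, rose from 1351, 1424 and 1359 CPM to 6558, 6561 and 6161 CPM (log2 2.22 ± 0.038). Hdc, histidine decarboxylase, which makes histamine, rose from 1760, 1836 and 1809 CPM to 3749, 3756 and 3685 CPM (log2 1.05 ± 0.038). Srgn, the granule proteoglycan serglycin, rose from 2826, 2903 and 2913 CPM to 5850, 5808 and 5857 CPM (log2 1.02 ± 0.028). The remaining 3 were Furin, a proprotein convertase (log2 1.19 ± 0.07), Nabp1, a single-stranded nucleic acid binding protein (1.85 ± 0.038), and Fgl2, a fibrinogen-like secreted protein (1.86 ± 0.047).

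Lists of genes by function were read against the background of 18.3% of all genes higher and 16.7% lower, and a median log2 fold change of 0.0108 over all genes tested. Some genes stand in more than 1 list. Of 26 cytokines and growth factors tested 18 were higher and 4 lower, with a median of 0.943. Areg, amphiregulin, an EGF family ligand of type 2 immunity, gave 141, 158 and 153 CPM and then 745, 786 and 656 CPM (log2 2.27 ± 0.071). Il3, the growth factor of basophils, was low, with 1.17, 1.23 and 1.6 CPM and then 6.64, 7.92 and 4.83 CPM (log2 2.23 ± 0.34, adjusted p = 9.17e-06). Il13, the other main type 2 cytokine, rose less than Il4, from 93.7, 101 and 88.2 CPM to 137, 147 and 135 CPM (log2 0.57 ± 0.057). Il1b rose from a mean of 212 to 641 CPM (log2 1.60 ± 0.053) and Inhba, the activin A subunit, from 49.6 to 187 CPM (1.91 ± 0.083). The 4 lower members were Tnf (-0.20 ± 0.056), the low Il10 (-1.20 ± 0.42), Pdgfb (-1.09 ± 0.086) and Gdf15 (-0.99 ± 0.20). Without control replicate 3 only 2 members were lower, since the calls of Tnf and Il10 were lost. The call of Il10 was also lost without control replicate 2, 4 h replicate 1 or 4 h replicate 3. This call was lost as well with no filter, with DESeq2 and with only the 6 libraries compared (adjusted p from 0.0602 to 0.0994).

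Of 21 chemokines 14 were higher and 4 lower, with a median of 1.21. Xcl1, a chemoattractant of cross-presenting dendritic cells, gave 1.02, 1.46 and 0.701 CPM in the controls and 9.58, 8.18 and 6.57 CPM at 4 h (log2 2.93 ± 0.30). Ccl7, which draws monocytes and eosinophils, rose from 9.2, 7.4 and 7.21 CPM to 37.5, 33.2 and 35.2 CPM (log2 2.17 ± 0.14). Cxcl2, a neutrophil attractant, rose from 319, 303 and 293 CPM to 1127, 1046 and 983 CPM (log2 1.79 ± 0.094). Its close relative Cxcl1 moved the other way, from 30.2, 33.3 and 36.6 CPM to 15, 12.1 and 18.6 CPM (log2 -1.13 ± 0.14). Cxcl10, an interferon-inducible chemokine, fell from 63.8, 59.9 and 63.2 CPM to 21.7, 33 and 24.5 CPM (log2 -1.25 ± 0.12), and Ccl6 and Cxcl16 were lower, with log2 changes of -0.66 ± 0.04 and -0.16 ± 0.048; the call of Cxcl16 was lost without 4 h replicate 3 (adjusted p = 0.0785).

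Receptors for these signals were mixed. Of 33 cytokine receptor genes 17 were higher and 6 lower. Il6st, the shared gp130 chain of interleukin-6 family receptors, rose from 21.6, 22.8 and 21 CPM to 77.1, 83.8 and 72.8 CPM (log2 1.84 ± 0.087). Il1r1 was low and rose from 1.02, 1.12 and 0.601 CPM to 3.62, 4.41 and 5.03 CPM (2.25 ± 0.35). Il18r1, a chain of the interleukin-18 receptor, fell from 246, 272 and 270.2 CPM to 118, 121 and 122 CPM (log2 -1.13 ± 0.056). Of the chains that bind interleukin-3, the specific chain Il3ra fell (-0.42 ± 0.061) while the shared chain Csf2rb rose (0.35 ± 0.037). Of 24 receptors for chemokines and other attractants 4 were higher and 8 lower. Ccr7, at or under 1.56 CPM in each of the 6 libraries, rose by log2 1.82 ± 0.57. Hrh4, the histamine H4 receptor, fell from 19.4, 16.4 and 16.9 CPM to 4.92, 5.32 and 7.08 CPM (log2 -1.60 ± 0.18).

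The IgE receptor chains did not move together. Fcer1a, the IgE-binding chain, fell from 913, 932 and 954 CPM to 439, 438 and 445 CPM (log2 -1.08 ± 0.043, adjusted p = 1.26e-17), with each library at 4 h below every control. Ms4a2, the amplifying beta chain, fell from 437, 433 and 455 CPM to 243, 227 and 279 CPM (log2 -0.82 ± 0.054). Fcer1g, the gamma chain shared with other Fc receptors, rose from 1477, 1519 and 1504 CPM to 1873, 1814 and 1754 CPM (log2 0.27 ± 0.042). Over the 42 genes of Fc receptors and proximal IgE signalling, 15 were higher and 17 lower. Rasgrp1, an activator of Ras, rose by log2 1.24 ± 0.18, while Syk, the kinase that the gamma chain recruits, fell, with a log2 change of -0.36 ± 0.044. Of 26 genes of calcium entry, calcineurin and NFAT 6 were higher and 8 lower. Stim1, the calcium sensor of the endoplasmic reticulum, and Nfatc2 fell (-0.57 ± 0.091 and -0.77 ± 0.14), as did the kinase gene Dyrk2 (-0.71 ± 0.082). The change of Itpr1, the inositol trisphosphate receptor, of -0.77 ± 0.24 was not called without 4 h replicate 2 (adjusted p = 0.0594).

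Genes of mediators and their release also split. Of 29 genes of lipid mediators and histamine 8 were higher and 11 lower. Beside Hdc, the monoamine transporter Slc18a2, which loads histamine into granules, rose from 185, 186 and 196 CPM to 321, 337 and 354 CPM (log2 0.83 ± 0.057). Ptgs2, cyclooxygenase-2, rose from 219, 239.7 and 212 CPM to 480, 502 and 415 CPM (log2 1.06 ± 0.082). The lipoxygenase Alox15 fell from 142, 131 and 139.6 CPM to 48.1, 50.7 and 48.8 CPM (log2 -1.48 ± 0.057), and the prostaglandin E synthase Ptges fell, with a log2 change of -1.58 ± 0.23. Of 23 granule genes 9 were higher and 4 lower. The protease gene Mcpt8, a basophil marker, rose by log2 0.22 ± 0.05, Prss34 fell (-0.49 ± 0.029) and Cpa3, carboxypeptidase A3, fell (-0.66 ± 0.034). Gzmb, granzyme B, rose from 178, 194 and 175 CPM to 512, 483 and 403 CPM (log2 1.35 ± 0.093), Gzmc, at under 7 CPM, by 1.73 ± 0.35, and the protease inhibitor gene Serpina3g by 2.12 ± 0.12.

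Of 21 genes of the exocytosis machinery 3 were higher and 8 lower. Rab27a, a GTPase of granule docking, fell from 106, 102 and 108 CPM to 48.8, 43.9 and 44.2 CPM (log2 -1.21 ± 0.073). Lyst, a regulator of lysosome-related granules, fell from 262, 291 and 298 CPM to 111, 135 and 118 CPM (log2 -1.23 ± 0.064). The membrane fusion protein gene Stx3 and the GTPase gene Rab37 were lower, with log2 changes of -1.09 ± 0.063 and -0.95 ± 0.068. For all 4 genes the libraries at 4 h lay below every control.

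Early response transcription factors were mostly higher: of 34 tested 25 were higher and 5 lower, with a median of 0.551. Besides Irf4, Fosl1 rose from 6.72, 3.92 and 5.31 CPM to 21.4, 24.9 and 20.2 CPM (log2 2.08 ± 0.17), and Crem, a cyclic AMP response factor, from 32.1, 29.8 and 27.9 CPM to 132, 112 and 119 CPM (2.02 ± 0.08). Fosb was lower than the control (-1.11 ± 0.21), as was Fos (-0.56 ± 0.17), whose call was lost without control replicate 2 or 3 or 4 h replicate 1 or 3 (adjusted p from 0.0524 to 0.0708). Id2 and Id3, inhibitors of helix-loop-helix factors, moved in opposite directions: Id2 rose from 302, 332 and 349 CPM to 842, 870.1 and 803 CPM (log2 1.35 ± 0.045), and Id3 fell from 33.9, 29.8 and 38.4 CPM to 10.6, 12.2 and 11.5 CPM (log2 -1.58 ± 0.13). Of 26 lineage transcription factors 6 were higher and 12 lower. Gfi1b, a repressor of early blood cells, fell from 43.4, 43.4 and 41.2 CPM to 17.6, 17.5 and 16 CPM (log2 -1.32 ± 0.10). Myb, a factor of progenitor cells, and Lmo4 were lower, with log2 changes of -1.0 ± 0.12 and -1.0 ± 0.062, and Bach2 rose by 1.00 ± 0.15. Gata2, a main factor of basophil identity, fell slightly, from 1473, 1524 and 1600 CPM to 1322, 1299 and 1364 CPM (log2 -0.21 ± 0.039).

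Of 27 NF-kB subunits and feedback genes 4 were higher and 11 lower; the lower count was 6 without control replicate 1, with DESeq2 and with no filter on low counts. Tnip1, a binding partner of the inhibitor A20, fell from 140, 142 and 128 CPM to 78, 68 and 64.3 CPM (log2 -0.96 ± 0.07). Tnip3, Nfkbid and Tnfaip3, the gene of A20, rose by 0.73 ± 0.081, 0.59 ± 0.076 and 0.45 ± 0.064. Feedback genes of other pathways were more often higher than lower. Of 21 genes of cytokine signalling feedback 10 were higher and 1 was lower, Jak2, which was not called without any one of the 6 libraries in turn. Socs1, an inhibitor of JAK kinases, rose from 64.2, 66.6 and 68.6 CPM to 247, 230.3 and 247 CPM (log2 1.86 ± 0.061), and Cish, an inhibitor of STAT5 signalling, from 125, 129.9 and 116 CPM to 354, 329.7 and 338 CPM (1.46 ± 0.074). Socs2 and the kinase gene Pim3 rose by 1.47 ± 0.10 and 0.99 ± 0.071. Of 24 genes of MAP kinase feedback 14 were higher and 2 lower. Dusp5, a nuclear ERK phosphatase, rose from 66, 81.9 and 76 CPM to 188, 193 and 179 CPM (log2 1.32 ± 0.065). Dusp16 and Rgs16, which limits G protein signalling, rose by 1.36 ± 0.10 and 1.88 ± 0.14, and Spry4, at under 2.1 CPM, by 1.71 ± 0.42.

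Genes around tristetraprolin itself were followed by their 3′ UTRs. The sites below are matches to the nonamer TTATTTATT, in capitals, the core of the AU-rich element that tristetraprolin binds. They are examples from a longer set, and 4 of these messages were higher and 2 lower at 4 h in TTP-KO. By edgeR's test the responses of the 2 genotypes gave no called difference for Csf2, Cxcl2, Areg, Plk3 or Cxcl1 (adjusted p from 0.0741 to 0.999). That of Tnf was called (adjusted p = 0.0412) but lost in 9 of the 12 fits without 1 library. Bcl2, Lif and Zfp36l1, not shown here, also hold the nonamer and had called differences, given below. The sites were read from the GRCm38 genome and the GENCODE M21 annotation, which is not the build of the study. For each gene the 3′ UTR of the transcript with the longest coding sequence was used, with ties going to the longer UTR. The sequences run 5′ to 3′ on the coding strand and in DNA letters.
Csf2, chr11:54247325-54247353, minus strand: aaatatTTATTTATTTATTTATTTATTtt
Cxcl2, chr5:90905336-90905364, plus strand: atctatgtatTTATTTATTTATTaattcc
Areg, chr5:91148382-91148410, plus strand: tatttaagtgTTATTTATTttatagctca
Plk3, chr4:117128718-117128746, minus strand: tggaccacttTTATTTATTaacagacatt
Tnf, chr17:35199682-35199710, minus strand: ttaTTATTTATTATTTATTTATTatttat
Cxcl1, chr5:90892615-90892643, plus strand: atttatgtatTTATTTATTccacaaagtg

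Of these 6 genes, Csf2, the growth factor GM-CSF, was low and rose from 1.17, 1.91 and 1.6 CPM to 5.61, 6.1 and 4.72 CPM (log2 1.78 ± 0.26). Plk3, a stress-response kinase, rose from 198, 200.4 and 192 CPM to 529, 527 and 448 CPM (log2 1.35 ± 0.055), and Cxcl2 and Areg rose as given above. Tnf, with 5 nonamers the most of the 6, was lower by little, with 211, 199.7 and 227 CPM in the controls and 181, 187 and 188 CPM at 4 h (log2 -0.20 ± 0.056), a call lost without control replicate 3 (-0.144, adjusted p = 0.0713). Cxcl1, with 2 nonamers, fell as given above. Of 35 reported tristetraprolin target messages 27 were higher and 6 lower in TTP-KO, with a median of 0.983. Without control replicate 3 only 3 were lower. In WT 30 were higher and 3 lower at 4 h, with a median of 1.05 (all genes 19.6% higher and 18.4% lower). Many of the 35 are also cytokines, chemokines or early response genes, and the list was drawn from reports on other cells. The heptamer TATTTAT was in the 3′ UTR of 29 of the 35 and the nonamer in 15. The list was chosen from such reports, so these counts are given as a description.

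Over the whole response, the heptamer was present in 37% of the 346 genes at least 2-fold higher that code for protein and have an annotated 3′ UTR, in 30.3% of the 300 at least 2-fold lower, and in 27.5% of all 11459 tested. The nonamer was in 8.96%, 7.67% and 7.23% of them. Among UTRs of 500 to 1500 bases the heptamer was in 35.2%, 26.2% and 23.9%, and the nonamer in 6.4%, 6.8% and 5.77%. The first 2 of these nonamer shares are 8 of 125 and 7 of 103 genes, too few to rank them. In WT cells 512 genes (3.64%) were at least 2-fold higher at 4 h. Those with a UTR gave 35.1% with the heptamer and 9.23% with the nonamer. With UTRs of 500 to 1500 bases they gave 35.7% and 7.86%, the latter 11 of 140 genes. These shares are descriptions of letters in the annotated UTRs. Of 35 genes of the tristetraprolin family and of mRNA decay 8 were higher and 6 lower. Zfp36 rose by log2 0.53 ± 0.053 (adjusted p = 4.02e-09) and its paralog Zfp36l1 from 69.7, 66 and 70.3 CPM to 143, 129.6 and 134 CPM (log2 0.98 ± 0.055). Btg1, an adaptor of deadenylation, rose by 0.72 ± 0.042, and the deadenylase gene Cnot6l fell (-0.73 ± 0.082).

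Surface proteins of activation were more often higher, with 18 of 31 higher and 4 lower. Pdcd1lg2, the gene of PD-L2, rose from 64.1, 76.2 and 71.5 CPM to 155, 158 and 159 CPM (log2 1.15 ± 0.064). Clec5a, a C-type lectin receptor, rose from 40.01, 42.2 and 36.5 CPM to 102, 104 and 101 CPM (log2 1.37 ± 0.074), and Siglece, an inhibitory lectin, by 1.25 ± 0.16. Of 34 genes of adhesion and the cytoskeleton 13 were higher and 15 lower. Itgax, the CD11c integrin chain, rose from 32.1, 38.7 and 33.1 CPM to 83.3, 93.4 and 82.4 CPM (log2 1.31 ± 0.077). Itga1, the GTPase gene Rnd1 and Arhgap15 were lower, with log2 changes of -1.07 ± 0.15, -1.33 ± 0.23 and -1.03 ± 0.078. Itga2, the gene of CD49b, the protein used to enrich the cells, fell from 57.5, 63.4 and 60.6 CPM to 31.1, 29.6 and 29.6 CPM (log2 -1.01 ± 0.083). Of 31 apoptosis regulators 9 were higher and 9 lower. The death-promoting genes Bcl2l11, which encodes Bim, and Bmf moved apart: Bcl2l11 rose from 93.5, 98.2 and 88.6 CPM to 218, 213 and 218 CPM (log2 1.21 ± 0.049), while Bmf fell from 21.3, 24.4 and 23.7 CPM to 7.42, 7.79 and 8.83 CPM (log2 -1.53 ± 0.14). Pmaip1, the gene of Noxa, rose by 0.91 ± 0.066 and the stress gene Gadd45a fell (-0.93 ± 0.079).

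Ribosome biogenesis was the list with the largest share of members higher among the 29 function lists: 34 of 40 genes were higher and 0 lower in edgeR's test, with 0 lower at an unadjusted p under 0.05 and 0 lower in DESeq2, with a median of 0.664 and 6 members at least 2-fold higher. Nop16, a nucleolar protein, rose from 9.2, 7.51 and 8.31 CPM to 21.7, 17.4 and 20.6 CPM (log2 1.27 ± 0.15). Nolc1, a scaffold of the nucleolus, rose from 18.8, 17.1 and 18.3 CPM to 38.7, 44.1 and 34.6 CPM (log2 1.11 ± 0.10). Pwp2 and Utp20, of the small subunit processome, were low and rose by 1.27 ± 0.26 and 1.16 ± 0.20. Myc, a transcription factor known to drive such genes, rose from 13.7, 7.62 and 10.7 CPM to 32.9, 23.1 and 27.2 CPM (log2 1.41 ± 0.18). At 2 h of antigen 12 of the 40 genes were higher than the control, where 17.8% of all genes were, and 28 were higher at 4 h than at 2 h, where 14.6% of all genes were.

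Cell cycle genes leaned the other way, with 4 of 43 higher and 20 lower. A pair of inhibitors of the cycle moved in opposite directions: Cdkn1b, p27, fell from 192, 205 and 202 CPM to 92.6, 107 and 110.3 CPM (log2 -0.96 ± 0.065), and Cdkn1a, p21, rose from 432, 425 and 402 CPM to 656, 629 and 609.7 CPM (log2 0.59 ± 0.038). E2f2, a factor of the G1 to S transition, fell from 163, 173 and 183 CPM to 92.7, 95.2 and 89.7 CPM (log2 -0.91 ± 0.06), and Ccnd2, cyclin D2, rose by 0.65 ± 0.07. Small decreases included those of Mki67 (-0.28 ± 0.054) and Top2a (-0.23 ± 0.064).

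Lists of metabolism and stress had more members higher than lower. Of 29 genes of glycolysis and the hypoxia response 17 were higher and 3 lower. Slc16a3, a lactate exporter, rose from 127, 142 and 134 CPM to 304, 289 and 271 CPM (log2 1.10 ± 0.055), and Vegfa, Ankrd37 and Pfkfb4 by 1.14 ± 0.16, 1.33 ± 0.25 and 0.95 ± 0.15. Of 31 genes of the unfolded protein and heat shock response 17 were higher and 4 lower, with the largest increase in the chaperone gene Hsph1 (0.89 ± 0.10) and the largest decrease in Herpud1 (-0.73 ± 0.066), which serves degradation at the endoplasmic reticulum. Of 25 genes of amino acid supply and the integrated stress response 10 were higher and 6 lower. Slc1a5, a glutamine transporter, rose from 53.1, 53.1 and 49.1 CPM to 105, 113 and 103 CPM (log2 1.04 ± 0.073), while Ddit3, the gene of CHOP, fell from 74.3, 66 and 59.2 CPM to 40.03, 36.2 and 40.2 CPM (log2 -0.77 ± 0.084) and Chac1 and Ddit4 fell, with log2 changes of -1.07 ± 0.25 and -0.70 ± 0.05. Of 31 cholesterol genes 10 were higher and 1 was lower, or 2 lower with upper quartile scaling and 3 with only the 6 or only the 9 TTP-KO libraries in the fit. Hsd17b7 and Nsdhl, of the synthesis pathway, rose by 0.72 ± 0.15 and 0.56 ± 0.15. The call of Scd1, at under 3.4 CPM, was lost without control replicate 2, control replicate 3 or 4 h replicate 2.

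Of 33 genes of autophagy and the lysosome 9 were higher and 11 lower. Map1lc3a, an LC3 gene, rose from 66.9, 70.4 and 70.9 CPM to 142, 139 and 137 CPM (log2 1.00 ± 0.057), and Mitf rose by 0.59 ± 0.072. The autophagy genes Optn and Ulk1 were lower (-0.67 ± 0.079 and -0.61 ± 0.11). Of 19 clock genes 4 were higher and 8 lower, or 5 lower without 4 h replicate 3. Rora fell from 30.7, 28.4 and 28.8 CPM to 13.6, 12.2 and 13.8 CPM (log2 -1.14 ± 0.13) and Bhlhe41 fell too, with a log2 change of -1.05 ± 0.12. The calls of Per2 and Per3 were each lost without either of 2 libraries, control replicate 2 and 4 h replicate 2 for Per2 and control replicate 3 and 4 h replicate 3 for Per3. Of 12 genes of MHC class II presentation 0 were higher in edgeR's test, with 3 higher at an unadjusted p under 0.05 and 0 in DESeq2. Without control replicate 2 or 4 h replicate 2 the count was 1, and without 4 h replicate 3 it was 2. The 3 lower members were the accessory chains H2-Oa (-0.83 ± 0.076) and H2-Ob (-0.62 ± 0.12) and the regulator Ciita (-0.52 ± 0.14). H2 genes share sequence, so reads may be split between them.

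Interferon response genes were more often higher than lower, with 15 of 40 higher and 6 lower. Ifit2, an antiviral effector, gave 9.2, 11.2 and 11 CPM in the controls, 7.27, 11.5 and 9.02 CPM at 2 h and 20.02, 26.6 and 27.3 CPM at 4 h (log2 at 4 h 1.22 ± 0.16). Oas1a and Irf7, a main regulator of type I interferon, rose by 0.91 ± 0.13 and 0.90 ± 0.14. Cxcl10, in the same list, was lower at both times. At 2 h 4 of the 40 genes were higher and 7 lower than the control (all genes 17.8% and 16.6%), and 20 were higher at 4 h than at 2 h (all genes 14.6%).

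**Figure D3:**
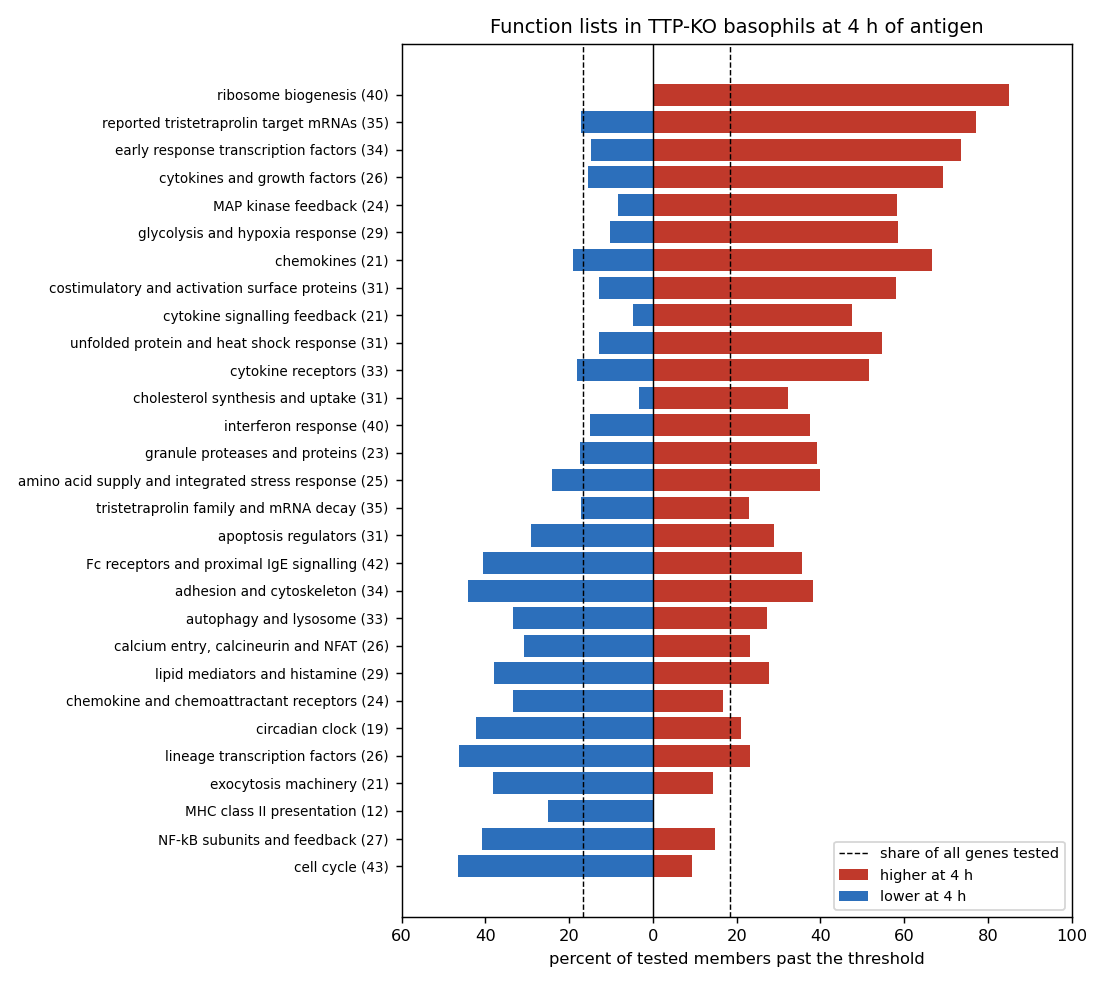
Percent of the tested members of each of the 29 function lists that were higher (red, to the right) or lower (blue, to the left) in TTP-KO basophils at 4 h, with the number tested in brackets; dashed lines mark the shares of all genes tested, 18.3% higher and 16.7% lower. Ribosome biogenesis is at the top with 34 of 40 higher, and cell cycle at the bottom with 20 of 43 lower.

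The response at 2 h was measured against the same control libraries, so the values of both times are given side by side and the change from 2 h to 4 h was tested directly. At 2 h 4852 genes differed from the control (34.5%), 2510 higher (17.8%) and 2342 lower (16.6%). Between 2 h and 4 h 4334 genes differed (30.8%), 2050 higher (14.6%) and 2284 lower (16.2%). The balance of directions depended on the scaling. With upper quartile scaling 2332 genes were higher and 2598 lower at 2 h, and 2314 higher and 2101 lower from 2 h to 4 h. Genes at least 2-fold changed at 4 h with a mean of at least 2 log2 CPM were ranked by their change after 2 h. Symbols that are only identifiers were left out. Arg1 had the largest increase, with 15.4, 17.8 and 18.1 CPM at 2 h, a log2 change of 0.69 ± 0.12 from the control. Its log2 change to 4 h was 2.74 ± 0.10 (adjusted p = 6.21e-19 by edgeR's test). Rab3il1 and Ccl24 were also late, with 24.2, 28.1 and 19.8 CPM and 7.84, 4.21 and 8.56 CPM at 2 h and changes to 4 h of 1.91 ± 0.093 and 1.84 ± 0.19. Prss37 and Scimp rose in steps, by 1.23 ± 0.15 and 1.38 ± 0.20 at 2 h and by a further 2.01 ± 0.12 and 1.60 ± 0.16. Rn7sk, the small nuclear RNA 7SK, which carries no poly(A) tail, was not called at 2 h (69.2, 47.4 and 49.2 CPM, adjusted p = 0.773) and gave 173, 164 and 219 CPM at 4 h, against 54.3, 58.7 and 60.8 CPM in the controls; the rise of ribosomal RNA in the same libraries is given above, and its part in this result was not tested.

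Other genes were past their peak at 4 h. Ptgs2 was at 2601, 2692 and 2589 CPM at 2 h and fell to the values above at 4 h, a log2 change of -2.50 ± 0.083. Egr3 and Nr4a3, both early response factors, were at 637, 637 and 615 CPM and 419.5, 429 and 402 CPM at 2 h and at 143, 155 and 131 CPM and 92.2, 102 and 101 CPM at 4 h, still above the controls. Plk3 went from 1749, 1917 and 1888 CPM to 529, 527 and 448 CPM. Fosb and Zbtb16, a zinc finger factor of innate-like lymphocytes, were above the control at 2 h (log2 1.07 ± 0.19 and 0.60 ± 0.15) and below it at 4 h (-1.11 ± 0.21 and -1.44 ± 0.17). Ccl3, Ccl4, Il6 and Il4 had also fallen from their level at 2 h, with log2 changes of -1.59 ± 0.049, -1.85 ± 0.041, -1.75 ± 0.063 and -1.06 ± 0.072. Among the cytokines and growth factors 17 of 26 were lower at 4 h than at 2 h and 4 were higher (all genes 16.2% and 14.6%).

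**Figure D4:**
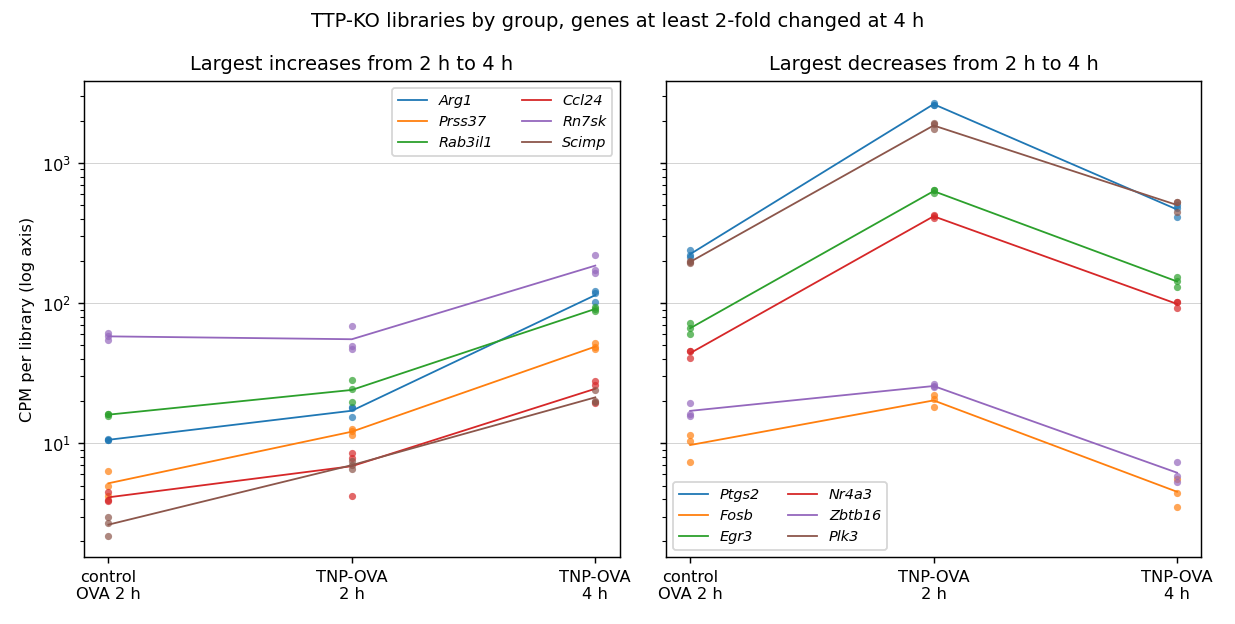
CPM on a log axis in the TTP-KO control (OVA for 2 h) and after 2 h and 4 h of TNP-OVA. Shown are the 6 largest increases (left) and 6 largest decreases (right) from 2 h to 4 h. They were chosen among genes at least 2-fold changed at 4 h with a mean of at least 2 log2 CPM, identifier-only symbols left out. Points are libraries, 3 a group, and lines join the group means. Arg1 lies near its control at 2 h and above 100 CPM at 4 h, while Ptgs2 peaks at 2 h.

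The same comparison in WT cells called 5350 genes (38.0%), 2758 higher (19.6%) and 2592 lower (18.4%). The difference between the 2 responses, tested as an interaction, was called for 97 genes (0.689%), with 39 more positive in TTP-KO (0.277%) and 58 more negative (0.412%). The count was 59 without WT control replicate 2, 56 without TTP-KO control replicate 2, 53 without WT 4 h replicate 2 or replicate 3, and 49 without TTP-KO 4 h replicate 2. It was 176 with DESeq2 and 259 with no filter on low counts. Of the 839 genes at least 2-fold changed in TTP-KO, 24 had such a difference, 14 with a more positive and 10 with a more negative log2 response in TTP-KO. A p that misses the threshold does not show that the other genes responded alike in both genotypes.

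Mrc1, the mannose receptor of macrophages, had the smallest p of the differences called higher in TTP-KO. It gave 45.3, 40.7 and 42.1 CPM in the TTP-KO controls and 119, 123 and 138 CPM at 4 h, against 44.1, 44.8 and 45.1 CPM and 66.3, 70.2 and 70.9 CPM in WT. The controls of the genotypes overlapped and the libraries at 4 h did not overlap, with log2 responses of 1.57 ± 0.074 and 0.63 ± 0.074 and a difference of 0.94 ± 0.10 (adjusted p = 1.76e-05). Fn1, fibronectin, went from 31.8, 31.6 and 34.8 CPM to 93.9, 95.4 and 85.8 CPM in TTP-KO and from 50.4, 45.8 and 46.2 CPM to 73, 67.6 and 76.6 CPM in WT (difference 0.88 ± 0.11). It was lower in TTP-KO in the controls and higher at 4 h. Dab2, an endocytic adaptor, went from 24.2, 21.9 and 25.2 CPM to 85.5, 83.3 and 87.1 CPM in TTP-KO and from 29, 27.7 and 28.8 CPM to 55.9, 57.2 and 47.5 CPM in WT (difference 0.93 ± 0.12).

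Lpl, lipoprotein lipase, Sdc4, a syndecan, and Cd93, a receptor of myeloid and progenitor cells, also rose more in TTP-KO, by 0.37 ± 0.065, 0.42 ± 0.067 and 0.40 ± 0.077. Several of these genes are well known in macrophages. The 15 monocyte and macrophage markers, Mrc1 among them, summed to 12700 to 12900 CPM in the TTP-KO controls and 11800 to 12700 CPM at 4 h, and to 10700 to 10800 CPM and 9420 to 9820 CPM in WT. In TTP-KO 4 of the 15 were higher and 2 lower at 4 h (all genes 18.3% and 16.7%). Without control replicate 1 or 4 h replicate 1 only 2 were higher. Without control replicate 3, 4 h replicate 2 or 4 h replicate 3 only 1 of these markers was lower. Their part in the result was not tested.

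Il4 and Arg1, already named among the strongest increases, also had a stronger response in TTP-KO. Il4 rose from 255, 274 and 266 CPM to 749, 777 and 829 CPM in WT, a log2 response of 1.57 ± 0.075 that was 0.65 ± 0.10 smaller than in TTP-KO (adjusted p = 0.00898). Arg1 rose from 10.4, 10.3 and 11.6 CPM to 68.4, 70.5 and 80.8 CPM in WT (difference 0.68 ± 0.15, adjusted p = 0.0223). For both genes the controls overlapped between genotypes and the libraries at 4 h did not. The cells that carry these messages cannot be told in bulk RNA, and the libraries also held the monocyte and macrophage markers given above. The difference of Il4 was called in each of the 12 fits without 1 library. That of Arg1 was called only in those without WT control replicate 1 or 2, WT 4 h replicate 3 or TTP-KO 4 h replicate 3, with a highest adjusted p of 0.0685 in the rest.

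Asb2, a substrate receptor of a ubiquitin ligase, showed the opposite. It went from 22.9, 25 and 23.2 CPM to 75.2, 59.8 and 65.9 CPM in TTP-KO and from 24.5, 26.2 and 25.5 CPM to 145, 159 and 203 CPM in WT, a difference of -1.23 ± 0.16 (adjusted p = 0.000327). Further at least 2-fold increases in TTP-KO were smaller than in WT, among them those of Spp1 (difference -0.33 ± 0.052), Fgl2 (-0.36 ± 0.064), Nr4a3 (-0.46 ± 0.083), Akr1c18, a steroid dehydrogenase (-0.43 ± 0.087), and Socs1 (-0.41 ± 0.085). The differences of Akr1c18 and Socs1 were each lost without some single libraries. For Akr1c18 these were WT control replicate 1, TTP-KO control replicate 2 and WT 4 h replicate 2. For Socs1 they were WT control replicate 2, TTP-KO control replicate 3, WT 4 h replicate 3 and TTP-KO 4 h replicate 2. Of the 35 reported tristetraprolin targets tested, 2 were called more positive and 5 more negative in TTP-KO for this difference. Of all genes tested 0.277% and 0.412% were so called. The other 28 targets gave no call. The 2 with a more positive response in TTP-KO were Il4 and Zfp36l1 (0.31 ± 0.077, adjusted p = 0.0499). The 5 with a more negative one were Il1a (-0.69 ± 0.11), Bcl2 (-0.70 ± 0.12), Socs3 (-0.60 ± 0.10), Lif (-0.76 ± 0.18) and Tnf (-0.34 ± 0.079). The inflammatory cytokine Il1a rose by 0.30 ± 0.074 in TTP-KO and 0.98 ± 0.076 in WT. Bcl2, an inhibitor of apoptosis, fell in TTP-KO (-0.30 ± 0.083) and rose in WT (0.40 ± 0.083). The differences of Il1a, Bcl2 and Socs3 were called in each of the 12 fits without 1 library, while those of Lif, Tnf and Zfp36l1 were lost in 7, 9 and 11 of them. The call of Zfp36l1 held without WT control replicate 3, and that of Tnf without WT control replicate 3, TTP-KO control replicate 2 or WT 4 h replicate 1. That of Lif held without WT control replicate 2 or 3, TTP-KO control replicate 3 or WT 4 h replicate 1 or 2.

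**Figure D5:**
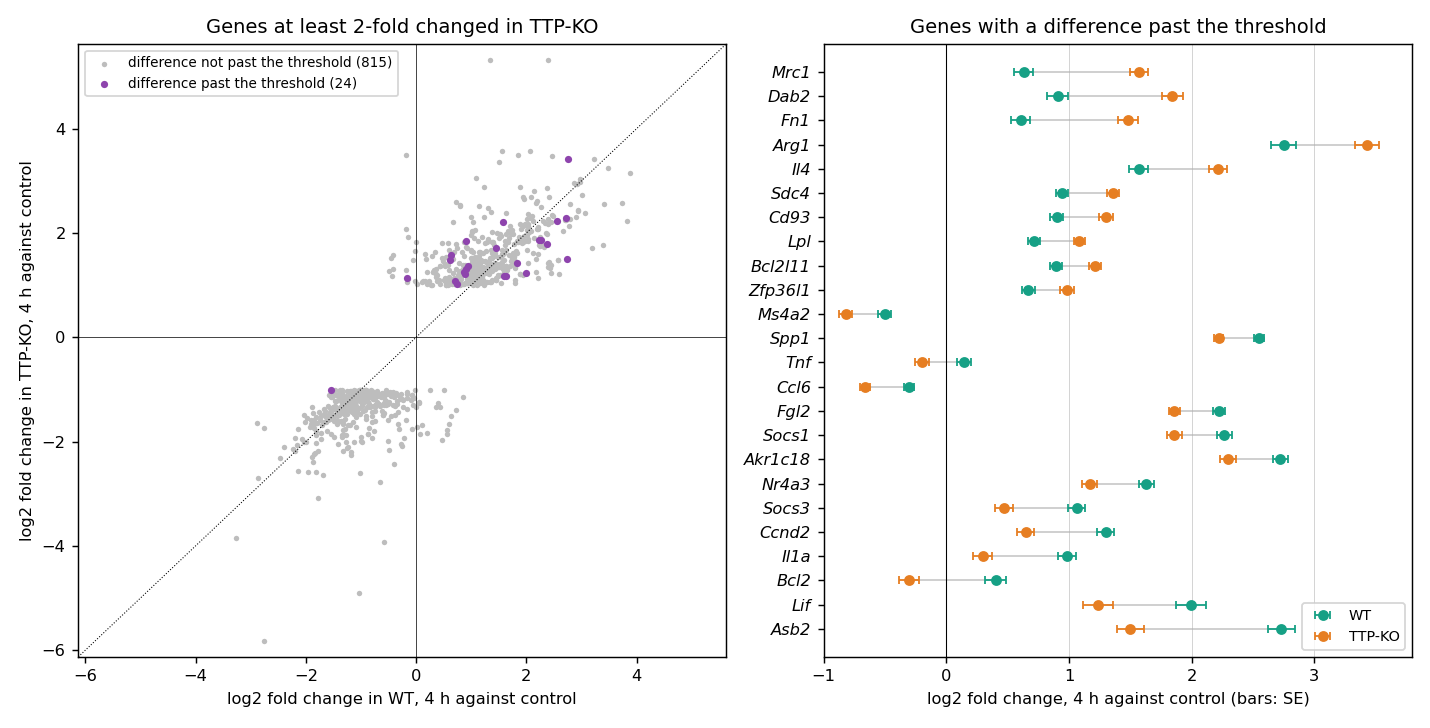
Left: log2 fold change at 4 h in TTP-KO against that in WT for the 839 genes called and at least 2-fold changed in TTP-KO, which the choice pulls away from 0 on the vertical axis; purple marks the 24 whose responses differed, and the dotted line equal responses. Right: log2 fold changes with standard errors in WT and TTP-KO for 24 genes named in the text whose responses differed. They run from Mrc1, with 0.94 more in TTP-KO, to Asb2, with -1.23. This is not the purple set: some of these genes, such as Bcl2 and Il1a, changed less than 2-fold in TTP-KO.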

How the data were processed

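Bulk RNA-seq of 18 libraries of bone marrow-derived basophils was used, of which the 6 TTP-KO libraries of control OVA and of TNP-OVA at 4 h form the main comparison. The table deposited by the authors holds expected counts per gene, which are estimated counts that need not be whole. Per the submitters' processing notes, which give no roles, cutadapt 3.5, STAR 2.7.10a, RSEM 1.3.1, R 4.4.1, R 4.4.0 and the build GRCm39 were used; the annotation release and the strand setting are not given in the sources used here. Overlapping and antisense genes, and genes with near-identical copies, are therefore uncertain. Columns named unstimulated were matched to control OVA by genotype and number.

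Counts were rounded and filtered with filterByExpr over the 6 groups, scaled by TMM and fitted with edgeR 4.0.16 (R 4.3.3, limma 3.58.1) as group means over all 18 libraries, with robust quasi-likelihood tests and Benjamini-Hochberg adjustment over 14076 genes. These genes held 99.8% of the counts. A call is an adjusted p under 0.05, and values after ± are standard errors, taken from the log2 fold change and its F statistic. The common coefficient of variation was 0.0905 with 12 residual degrees of freedom. With 3 libraries a group no exact permutation test of a single gene goes below 0.1, so none is given. CPM uses TMM-scaled library sizes. Replicates differed by more than counting noise, so none was counted as a duplicate. The pipeline was tested on simulated data.

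Named genes were the 15 largest increases and decreases with a mean of at least 2 log2 CPM, no overlap of groups and a call kept without each library; up to 4 called members of each list with the largest change; the 10 most abundant at least 2-fold changed; and, among at least 2-fold changed genes, up to 6 a direction by the p of the genotype difference and by the change after 2 h. The choice by the change after 2 h also required a mean of at least 2 log2 CPM. Symbols that are only identifiers were not named. Some members that these rules pick are not reported here. Other list members were chosen after their values were seen. The comparison and the lists were chosen with earlier results of these data known. The lists were written from general knowledge of the genes.

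Alternatives were RLE and upper quartile scaling, no filter, DESeq2 1.42.0, only the libraries compared, a replicate block and leaving out each library; a fit on the 9 TTP-KO libraries was added after seeing the data. UTR sequences came from GENCODE M21 on GRCm38, matched by gene identifier, in 11459 of 11713 protein-coding genes tested.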

Additional observations from a re-analysis of the deposited data

Results flagged for a closer look

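The log2 response to 4 h of antigen differed between the genotypes, by edgeR's interaction test with Benjamini-Hochberg adjustment over all genes, for 24 of the genes named. These differences are TTP-KO minus WT, over 3 libraries in each of 4 groups. More positive in TTP-KO were Mrc1 (0.943, adjusted p = 1.76e-05), Dab2 (0.934, 3.84e-05), Fn1 (0.875, 3.84e-05), Arg1 (0.676, 0.0223), Il4 (0.646, 0.00898), Sdc4 (0.416, 0.00133), Cd93 (0.402, 0.00817), Lpl (0.371, 0.00321), Bcl2l11 (0.317, 0.0223) and Zfp36l1 (0.314, 0.0499). More negative were Asb2 (-1.23, 0.000327), Lif (-0.757, 0.0409), Bcl2 (-0.705, 0.00199), Il1a (-0.688, 0.000758), Ccnd2 (-0.653, 0.000552), Socs3 (-0.595, 0.00321), Nr4a3 (-0.464, 0.00346), Akr1c18 (-0.426, 0.0147), Socs1 (-0.408, 0.0172), Fgl2 (-0.364, 0.00321), Ccl6 (-0.355, 0.00123), Tnf (-0.339, 0.0412), Spp1 (-0.33, 0.00104) and Ms4a2 (-0.318, 0.0484). Ccl6, a chemokine, and Ms4a2, the beta chain of the IgE receptor, fell in both genotypes, more so in TTP-KO. Of the 24, 16 were called in each of the 12 fits without 1 library. The calls of Akr1c18, Socs1, Bcl2l11, Lif, Arg1, Tnf, Ms4a2 and Zfp36l1 were lost in 3, 4, 6, 7, 8, 9, 10 and 11 of them. For Bcl2l11 these were WT control replicates 1 and 2, TTP-KO control replicate 3, WT 4 h replicates 2 and 3 and TTP-KO 4 h replicate 1. For Ms4a2 they were all libraries but WT control replicate 3 and TTP-KO 4 h replicate 3. Ccnd2, cyclin D2, rose by 0.65 ± 0.07 in TTP-KO and 1.3 ± 0.068 in WT, and Bcl2l11, the gene of Bim, by 1.21 ± 0.049 and 0.89 ± 0.048.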

How the results depend on the processing

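The count of genes changed at 4 h in TTP-KO was 4932 and stayed within 1.5 times that value in every alternative run, from 4279 to 4382 without 1 library to 5114 with only the 6 libraries in the fit. DESeq2 called 4393 genes, of which 4329 were also called by edgeR. Of the 4932 genes, 3424 were called in each of the 6 fits without 1 library. The count of differences between genotypes moved more: 97 became 259 with no filter on low counts (114 more positive and 145 more negative) and 176 with DESeq2 (71 and 105). Without 1 library it ran from 49 to 135, from 18 to 53 more positive and from 29 to 82 more negative; the cause was not tested. With the replicate number as a replicate block 4891 genes were called at 4 h and 89 differences between genotypes. Same-numbered control and 4 h libraries showed no pairing, with correlations of their deviations from -0.0229 to 0.0247, and no library correlated best with its own number. Of 190 genes followed at 4 h against control and the 24 genotype differences named, 0 reversed in the alternatives run, and calls were lost in 35 and 64 of these values. Scd1 was also not called with no filter, with DESeq2, or with only the 6 or only the 9 TTP-KO libraries (adjusted p from 0.0602 to 0.0645). Of 1040 list counts 53 moved by more than 1.5 times. The median standard error was 0.472 in the lowest of 4 classes of genes by CPM.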
